A study of Mus musculus with 6 samples.

Results

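The mRNA of 9 genes of the vacuolar proton pump was followed in bEnd.3 cells, a mouse brain endothelial line transformed with polyoma middle T antigen. The 9 genes, out of 15917 in the table, encode the membrane sector V0 of the vacuolar ATPase (V-ATPase) and its accessory proteins: Atp6v0a1, Atp6v0a2, Atp6v0b, Atp6v0c, Atp6v0d1, Atp6v0e, Atp6v0e2, Atp6ap1 and Atp6ap2. They were chosen by symbol, and this set and the contrast were selected on the measured FPKM of knockdown and control libraries, so the differences of the 9 genes between the groups are given as a description. Table-wide calls among them are counted, also with single libraries left out and by the authors' deposited values, and nothing is read from those counts. The samples were 3 libraries of cells with a control hairpin (shControl replicates 1, 2 and 3) and 3 of cells with a hairpin against Npc1 (shNpc1 replicates 4, 5 and 6), all from the same line; a further label calls the controls wild type. The labels name neither the hairpin sequences, vector or promoter nor whether cells were cloned or replicates grown separately, so the spread between replicates may be technical.

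The V-ATPase pumps protons into lysosomes, endosomes and the Golgi with energy from ATP. Its cytosolic sector V1 hydrolyses ATP and turns a rotor, and the membrane sector V0 carries the protons through a ring of hydrophobic subunits turning against the fixed subunit a. Both sectors can come apart and rejoin, and the assembled pump also serves as a platform for nutrient signalling at the lysosome. Genes for lysosomal proteins often carry near their start a site called the CLEAR element, which is bound by the transcription factors TFEB and TFE3 and built around the letters CACGTG. Npc1 moves cholesterol out of lysosomes.

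All 12 endothelial markers listed were above a mean of 1 FPKM (a fragment count scaled to transcript length and library size), and their summed level was 1972 to 2004 FPKM in the controls and 1873 to 1964 FPKM in the knockdown. Single markers in this sum went both ways, with ratios of knockdown to control means from 0.76 for Tek to 1.26 for Eng. Of 10 macrophage and osteoclast markers 6 were in the table. All of these but Cd68, whose product is a lysosomal membrane protein also made outside macrophages, summed to between 0.29 and 0.93 FPKM in any library, and Ptprc, Csf1r and Itgam were each at or below 0.1 FPKM. Pericyte and fibroblast markers (7 of 10 in the table) summed to 1.31 to 1.80 FPKM in the controls and 1.22 to 1.72 FPKM in the knockdown. Neuron and astrocyte markers other than Aldh1l1 (4 more of the 8 were in the table) summed to at most 0.13 FPKM. Aldh1l1 had 1.10 ± 0.0400 FPKM in the controls and 5.29 ± 0.508 in the knockdown, and Cd68 had 110 ± 4.05 and 233 ± 22.0 FPKM (SD, n = 3 per group). In bulk samples, fewer cells of a type and less RNA per cell cannot be told apart. The part of these markers in the results was not tested. Npc1 itself was at 6.31, 6.63 and 7.27 FPKM in the controls and at 0.45, 1.2 and 0.97 in replicates 4, 5 and 6, with a smallest possible exact two-sided permutation p of 0.1 for 3 against 3 samples, which it reached.

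The promoters of the V0 genes were searched for the letters of the CLEAR element, because these genes were mostly higher together in the knockdown. A RefSeq table for build GRCm38.p6 gave windows of 300 bases that span a transcript start, mostly upstream of it, for 8 of the 9 genes. The window of Atp6v0a1 does not lie at the outermost start of that gene's record, and Atp6v0c has 3 windows. Shown are the 3 windows that hold CACGTG. That of Atp6ap2, the member that was not higher, is added as a window without it, picked with its values known. The windows without a match also include those of higher genes, named below. Capitals mark CACGTG with the flanking T and A where the longer motifs TCACGTG or TCACGTGA matched, and all other bases are in lower case. The windows lie at chr4:117887280-117887579 (minus strand) for Atp6v0b, at chr8:105566015-105566314 (minus strand) for Atp6v0d1, at chr17:26676146-26676445 (plus strand) for Atp6v0e and at chrX:12587509-12587808 (plus strand) for Atp6ap2, each written 5′ to 3′ along the gene.
Atp6v0b: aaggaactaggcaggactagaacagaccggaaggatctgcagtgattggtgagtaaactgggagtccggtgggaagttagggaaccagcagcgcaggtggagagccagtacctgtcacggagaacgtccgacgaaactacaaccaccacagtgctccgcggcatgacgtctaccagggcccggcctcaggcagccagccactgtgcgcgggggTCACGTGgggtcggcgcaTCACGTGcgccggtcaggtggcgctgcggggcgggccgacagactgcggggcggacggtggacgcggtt
Atp6v0d1: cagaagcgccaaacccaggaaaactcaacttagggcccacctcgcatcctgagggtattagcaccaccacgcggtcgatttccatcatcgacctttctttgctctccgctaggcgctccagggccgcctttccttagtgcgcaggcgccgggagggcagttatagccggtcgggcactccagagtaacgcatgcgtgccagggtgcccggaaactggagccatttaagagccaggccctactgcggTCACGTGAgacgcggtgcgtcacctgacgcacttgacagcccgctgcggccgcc
Atp6v0e: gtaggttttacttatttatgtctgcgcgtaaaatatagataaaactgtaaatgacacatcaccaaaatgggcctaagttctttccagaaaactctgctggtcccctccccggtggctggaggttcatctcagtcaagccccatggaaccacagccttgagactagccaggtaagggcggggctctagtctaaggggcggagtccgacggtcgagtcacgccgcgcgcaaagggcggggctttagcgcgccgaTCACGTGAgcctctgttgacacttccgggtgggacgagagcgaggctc
Atp6ap2: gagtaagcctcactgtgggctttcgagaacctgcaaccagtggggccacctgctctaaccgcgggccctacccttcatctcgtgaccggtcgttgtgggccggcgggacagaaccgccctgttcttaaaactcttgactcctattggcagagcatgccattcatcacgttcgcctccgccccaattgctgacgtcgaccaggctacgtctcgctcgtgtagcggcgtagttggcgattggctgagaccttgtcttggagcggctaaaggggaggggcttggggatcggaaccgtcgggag

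Atp6v0b held CACGTG at bases 215 to 220 and again at 233 to 238 of its window, each time as TCACGTG. Atp6v0d1 and Atp6v0e held the longer TCACGTGA close to the start site, with its core at bases 248 to 253 and 254 to 259. Both strands were searched, and each longer motif contains the shorter ones. Of the 8 genes with a window, 3 (37.5%) held CACGTG, against 12.3% of the 8442 tested genes with a window and 8.09% of all 27025 genes in the table (7.15% of all 32851 windows). TCACGTG was held by the same 3 genes, against 7.50% of tested genes (3.77% of all windows). TCACGTGA was held by 2 of the 8 genes, against 2.49% of tested genes (0.974% of all windows). The windows of Atp6v0a1, Atp6v0c, Atp6v0e2, Atp6ap1 and Atp6ap2 had no match. Of these genes all but Atp6ap2 were higher in the knockdown, including Atp6v0e2 with the largest ratio of means of the set (2.30). Whether a match goes with the difference was not tested. Among the 16 genes with a window of the mitochondrial F-type ATP synthase, a related rotary enzyme, 5 held CACGTG, 2 held TCACGTG and 0 held TCACGTGA. A match of these letters is not a measured binding site.

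In the control cells the transcripts of the 9 genes spanned a wide range. FPKM is counted per length, so levels of different genes can be set side by side. Atp6v0c, for the main subunit of the proton ring, was highest, with a mean of 255 FPKM, above 96.9% of the tested genes over all 6 libraries. Atp6v0e at 176 and Atp6v0b at 164 FPKM followed, with ranges that overlapped. After these came Atp6ap1 at 117, Atp6ap2 at 84.0, Atp6v0d1 at 32.1 and Atp6v0a2 at 21.7 FPKM. The lowest were Atp6v0a1 at 6.07 and Atp6v0e2 at 2.44 FPKM. Apart from Atp6v0e and Atp6v0b, neighbours in this order did not overlap between control libraries. In the knockdown the order was kept, except that Atp6v0b and Atp6v0e changed places, again with overlapping ranges, and that the ranges of Atp6ap2 and Atp6v0d1, apart in the controls, now overlapped.

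**Figure D1:**
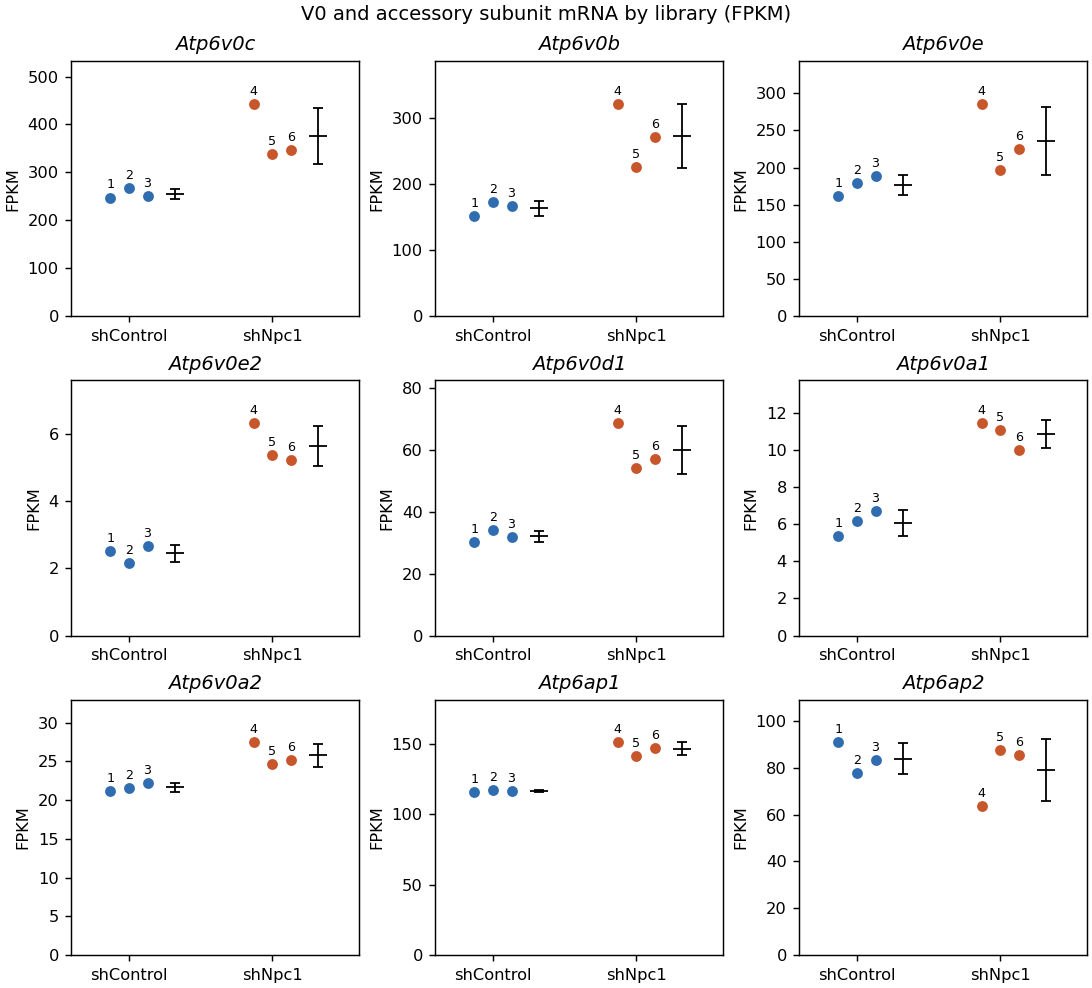
FPKM of each V0 and accessory gene (vertical axes from 0) in the 3 shControl and the 3 shNpc1 libraries, with points numbered by replicate and the mean ± SD of each group in black. Replicate 4 is the highest knockdown library for 8 of the 9 genes and the lowest of all libraries for Atp6ap2.

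The proton ring is built from the c subunit and a related c″ subunit. Atp6v0c, the c subunit gene, was at 247.59, 267.07 and 251.02 FPKM in control replicates 1, 2 and 3, and at 443.61, 337.58 and 346.36 FPKM in knockdown replicates 4, 5 and 6. Every knockdown library lay above every control library, and replicate 4 lay well above the other two. Control libraries averaged 255 ± 10.4 FPKM and knockdown libraries 376 ± 58.8 (SD over 3 each). The ratio was 1.47, and the difference in log2(FPKM + 1), the scale of all log2 differences here, was 0.55 (SE 0.11). Atp6v0b, the c″ subunit gene, was at 151.1, 173.3 and 166.2 FPKM in the controls and at 321.5, 225.3 and 270.4 in the knockdown. The groups did not overlap, and the 3 knockdown libraries were spread more widely than the controls. The ratio of means was 1.67 (log2 difference 0.72, SE 0.13). The level of Atp6v0c was 1.56 ± 0.0669 times that of Atp6v0b in the controls and 1.39 ± 0.109 times in the knockdown (SD, n = 3 per group), with no overlap.

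Subunit d sits on the ring and joins it to the central stalk of V1. Atp6v0d1, the gene for its widely expressed form, was at 30.39, 34.02 and 31.76 FPKM in the controls and at 68.75, 54.15 and 57.20 in the knockdown. The lowest knockdown library was clearly above the highest control. The means were 32.1 ± 1.83 and 60.0 ± 7.70 FPKM (SD, n = 3 per group). Their ratio was 1.87, and the log2 difference of 0.88 (SE 0.10) was larger than that of 99.3% of the 10400 genes tested. The level of Atp6v0c was 7.97 ± 0.158 times that of Atp6v0d1 in the controls and 6.25 ± 0.199 times in the knockdown, with no overlap between groups. Atp6v0d2, the gene of the other d isoform, was looked up and was not among the genes in the table.

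Subunit a forms the channels by which protons reach and leave the ring, and its isoforms place the pump in different compartments. Atp6v0a1, the isoform known best from neurons and synaptic vesicles, was at 5.35, 6.14 and 6.71 FPKM in the controls and at 11.44, 11.05 and 10 in the knockdown. Its 3 knockdown libraries lay close together, with no overlap between groups, and the ratio of means was 1.79 (log2 difference 0.75, SE 0.10). Atp6v0a2, the isoform of the Golgi and endosomes, was at 21.15, 21.55 and 22.28 FPKM in the controls and at 27.47, 24.73 and 25.15 in the knockdown. The groups were again apart, with a smaller ratio of 1.19 (log2 difference 0.24, SE 0.07). Tcirg1 encodes isoform a3, known from lysosomes and from osteoclasts, and is not among the 9 genes. It was at 20.89, 20.51 and 21.74 FPKM in the controls and at 28.95, 26.49 and 27.14 in the knockdown. Tcirg1 rose 1.31-fold (log2 difference 0.37, SE 0.06, limma adjusted p = 0.0108). Its adjusted p was 0.0642, 0.0606 and 0.0545 without control replicate 1, 2 or 3 and 0.0507 without knockdown replicate 6, in a range of 0.00299 to 0.0642 over all alternatives. After the GC correction its log2 difference was 0.20 (limma adjusted p = 0.0343). Atp6v0a4, the isoform of kidney and inner ear, stayed at or below 0.14 FPKM in all libraries and was not tested.

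Of the summed FPKM of these 4 a isoforms, Atp6v0a1 made up 11.3% to 13.2% in the control libraries and 16.0% to 17.7% in the knockdown libraries. Atp6v0a2 made up 43.8% to 44.6% and 39.7% to 40.4%. Both shares were apart between groups, in opposite directions. Tcirg1 held 42.4% to 44.0% and 42.5% to 43.5%, with overlapping ranges. Atp6v0a2 held a larger share than Tcirg1 in each control library and a smaller one in each knockdown library, though their ranges overlapped in the controls. Atp6v0a1 was below both throughout. These shares are of FPKM not corrected for GC content. After the GC correction described below, the log2 difference was 0.20 for Tcirg1 and 0.16 for Atp6v0a2, beside 0.37 and 0.24 before it. That of Atp6v0a1 was 0.63, beside 0.75. Whether the change of order remains after the correction was not tested.

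**Figure D2:**
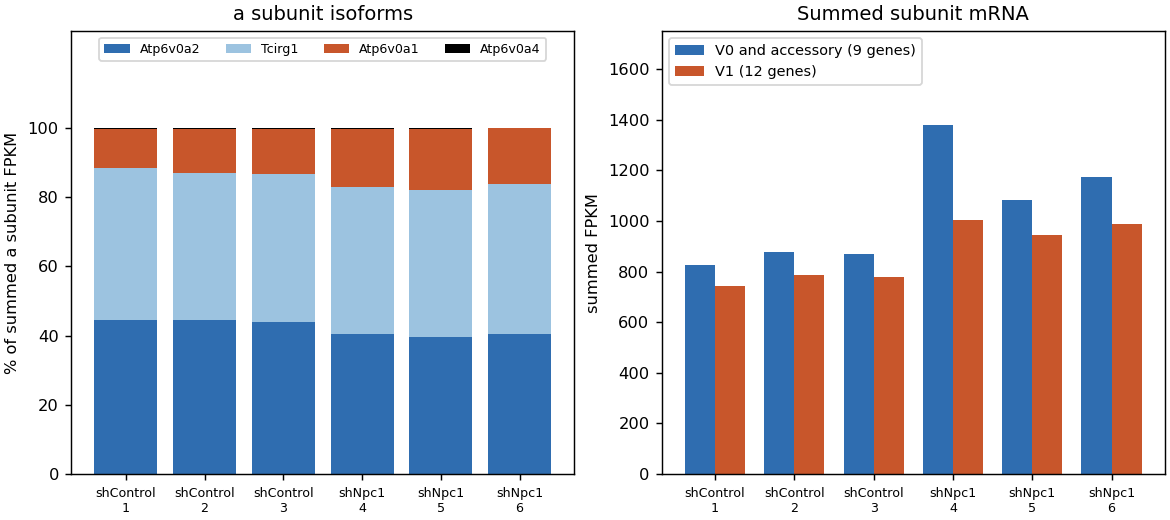
Left, share of each a subunit isoform in the summed FPKM of the 4 isoforms, per library (percent); right, summed FPKM of the 9 V0 and accessory genes and of the 12 V1 genes per library. The share of Atp6v0a1 is 11.3% to 13.2% in shControl and 16.0% to 17.7% in shNpc1; both sums are higher in every shNpc1 library, and the V0 sum is highest in replicate 4.

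Subunit e is a small membrane protein of V0 with 2 isoforms. Atp6v0e was at 161.1, 179.8 and 188.3 FPKM in the controls and at 286.2, 196.3 and 225.5 in the knockdown. Knockdown replicate 5 lay only just above control replicate 3, so that the groups were narrowly apart. The ratio of means was 1.34 (log2 difference 0.40, SE 0.14), and the difference was 0.26 without knockdown replicate 4. Atp6v0e2, the isoform found mainly in brain, was at 2.50, 2.16 and 2.67 FPKM in the controls and at 6.32, 5.36 and 5.21 in the knockdown. It had the largest ratio of means of the 9 genes, 2.30, at the lowest level (log2 difference 0.94, SE 0.10). Because of the added 1, this log2 difference is smaller than the ratio implies, and it was 1.17 with a pseudocount of 0.1 and 0.51 with one of 5. Atp6v0e2 made up 1.19% to 1.53% of the summed FPKM of both e genes in the controls and 2.16% to 2.66% in the knockdown.

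Atp6ap1 and Atp6ap2 encode accessory membrane proteins bound to V0, known as Ac45 and the prorenin receptor. Atp6ap1 was at 115.8, 117.4 and 116.7 FPKM in the controls and at 151.2, 141.7 and 147.3 in the knockdown. The spread within each group was smaller here than for either ring gene, with no overlap, and the ratio of means was 1.26 (log2 difference 0.33, SE 0.05). Atp6ap2 was at 90.90, 77.86 and 83.23 FPKM in the controls and at 63.69, 87.84 and 85.68 in the knockdown. Replicate 4 was the lowest of all 6 libraries, while replicates 5 and 6 lay within the control range. The means were 84.0 ± 6.55 and 79.1 ± 13.4 FPKM (SD, n = 3 per group), a log2 difference of -0.10 (SE 0.13), which was 0.05 without replicate 4 and 0.15 (SE 0.05) after the GC correction described below. The level of Atp6ap1 was 1.27 to 1.51 times that of Atp6ap2 in the controls and 1.61 to 2.37 times in the knockdown, the highest being that of replicate 4. These ratios are of FPKM not corrected for GC content. After that correction the log2 difference of Atp6ap1 was 0.24 (SE 0.04), nearer to the 0.15 of Atp6ap2 than before it.

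All 9 genes passed the filter of a mean of 1 FPKM. In 8 of them all knockdown libraries lay above all controls, as they did in 27.4% of the 10400 tested genes. By the threshold used for the whole table (limma, adjusted p under 0.05), 7 were called higher and 0 lower, beside 12.0% of all tested genes called higher and 5.89% lower (1251 and 613 genes). Those outside the call were Atp6v0e and Atp6ap2. These counts support nothing, as the set was assembled with the values known. With control replicate 1 or 3 or knockdown replicate 6 dropped, 3 of the 9 were called, and with control replicate 2 dropped 4. The higher and lower calls over all genes were 844 and 755 with median centring, 957 and 766 with a trimmed mean, and 1379 and 1210 after the GC correction. By the authors' deposited table, 6 of the 9 genes were higher at q under 0.05 and 0 lower, beside 6.48% of its 15917 genes called higher. That share includes genes under the filter of 1 FPKM, so it is not over the same genes as the 12.0%. The authors' deposited table gives Atp6v0d1 a log2 ratio of 0.89 and Atp6v0e2 one of 1.19. The median log2 difference of the 9 genes was 0.55, beside 0.03 for all tested genes.

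Knockdown replicate 4 stood apart from replicates 5 and 6, and its deviation moved with the GC content of the transcript. Over 10247 tested genes the difference between replicate 4 and the mean of replicates 5 and 6 had a Pearson r of 0.70 with GC content, as a description across genes that share these libraries. The log2 difference between the groups also moved with GC content, with r of 0.44 over those genes and 0.77 over the 9 members of the V0 set. As the 9 were selected on this difference, the 2 values of r cannot be compared. Of the 9 genes, 8 were highest in replicate 4, and Atp6ap2, with the lowest GC content of the set (40.5%), was lowest there. Replicate 4 exceeded the mean of 5 and 6 by 0.38 in Atp6v0b and 0.37 in Atp6v0c, on the log2(FPKM + 1) scale, the genes with the highest GC content (55.9% and 56.0%). Atp6v0e did not follow this order: its reference transcript has 44.8% GC, and its excess in replicate 4 was 0.44. The median over the 9 genes of the log2 difference from the control mean was 0.80 in replicate 4, 0.40 in replicate 5 and 0.44 in replicate 6, so it was above 0 in each of them. Without replicate 4 the log2 differences were 0.78 for Atp6v0d1, 0.71 for Atp6v0a1, 0.59 for Atp6v0b and 0.42 for Atp6v0c. With the deviation on GC content removed from every library they were 0.76, 0.63, 0.58 and 0.40. Those of Atp6v0e2, Atp6ap1 and Atp6v0a2 were then 0.83, 0.24 and 0.16. That of Atp6v0e went up instead, from 0.40 to 0.50 (SE 0.20). Replicate 4 also had the lowest Npc1 level.

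**Figure D3:**
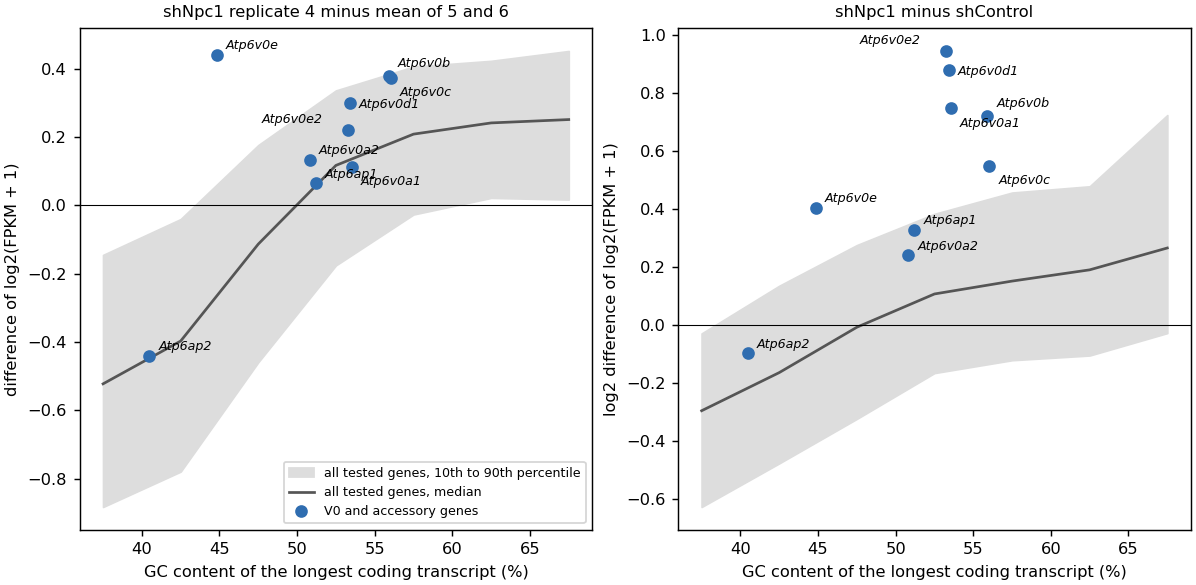
Difference of log2(FPKM + 1) between shNpc1 replicate 4 and the mean of replicates 5 and 6 (left) and between the groups (right), against the GC content of each gene's longest coding transcript (percent); line and band give the median and the 10th to 90th percentile of tested genes in bins of 5% GC, and points are the 9 genes. On the left, 8 of the points lie within the band and Atp6v0e lies far above it; on the right, all 9 lie above the median line and 6 of them above the band.

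The other genes of the pump were taken from lists chosen with earlier results of these data known. V1 holds the ATP-splitting head and the stalks. Of 13 V1 genes 12 were in the table, and 8 could be tested. Of these 5 rose, 0 fell and 3 did not pass, beside 12.0% of all tested genes called higher; the median log2 difference was 0.36. Atp6v1d, for a subunit of the central rotor, was at 63.24, 64.68 and 65.38 FPKM in the controls and at 82.41, 88.64 and 96.48 in the knockdown. All its knockdown libraries were above the controls, with replicate 4 the lowest of them, and it rose 1.38-fold (log2 difference 0.46, SE 0.07, limma adjusted p = 0.00786). Atp6v1a, which encodes the catalytic subunit, averaged 36.0 ± 0.937 FPKM in the controls, and 46.8 ± 4.53 with knockdown (SD over 3 each), and rose (limma adjusted p = 0.0249). Atp6v1e1 and Atp6v1g1, for the outer stalks, rose 1.33-fold and 1.28-fold, and the regulatory subunit gene Atp6v1h 1.23-fold. Atp6v1f (log2 difference 0.37), Atp6v1b2 (0.19) and Atp6v1c1 (0.18) did not pass. The number of V1 calls was 0 when control replicate 1 or 3 was dropped, 1 when control replicate 2 or knockdown replicate 6 was dropped, and 3 under TPM scaling. With one of these 4 libraries dropped, calls over the whole table numbered 469 to 722 in place of 1864. V1 calls numbered 6 after the GC correction and 6 without knockdown replicate 4. Atp6v1c1 was called higher in both settings (limma adjusted p = 0.00657 and 0.00971). The log2 difference of Atp6v1d was 0.64 after the GC correction.

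Atp6v1b1, Atp6v1e2, Atp6v1g2 and Atp6v1g3, isoforms known mainly from other tissues, had at most 0.59 FPKM and were not tested. The V1 genes summed to 742 to 785 FPKM in the controls and 944 to 1005 FPKM in the knockdown, and the 9 V0 and accessory genes to 826 to 879 and 1084 to 1380 FPKM. The V0 sum was 1.11 to 1.12 times the V1 sum in the controls and 1.15 to 1.37 times in the knockdown, the highest value being that of replicate 4. Of the V1 genes tested, 4 had a RefSeq promoter window, and Atp6v1a held TCACGTGA. Whether V0 and V1 genes differed in their response was not tested, since the V0 set was selected on the same contrast.

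**Figure D4:**
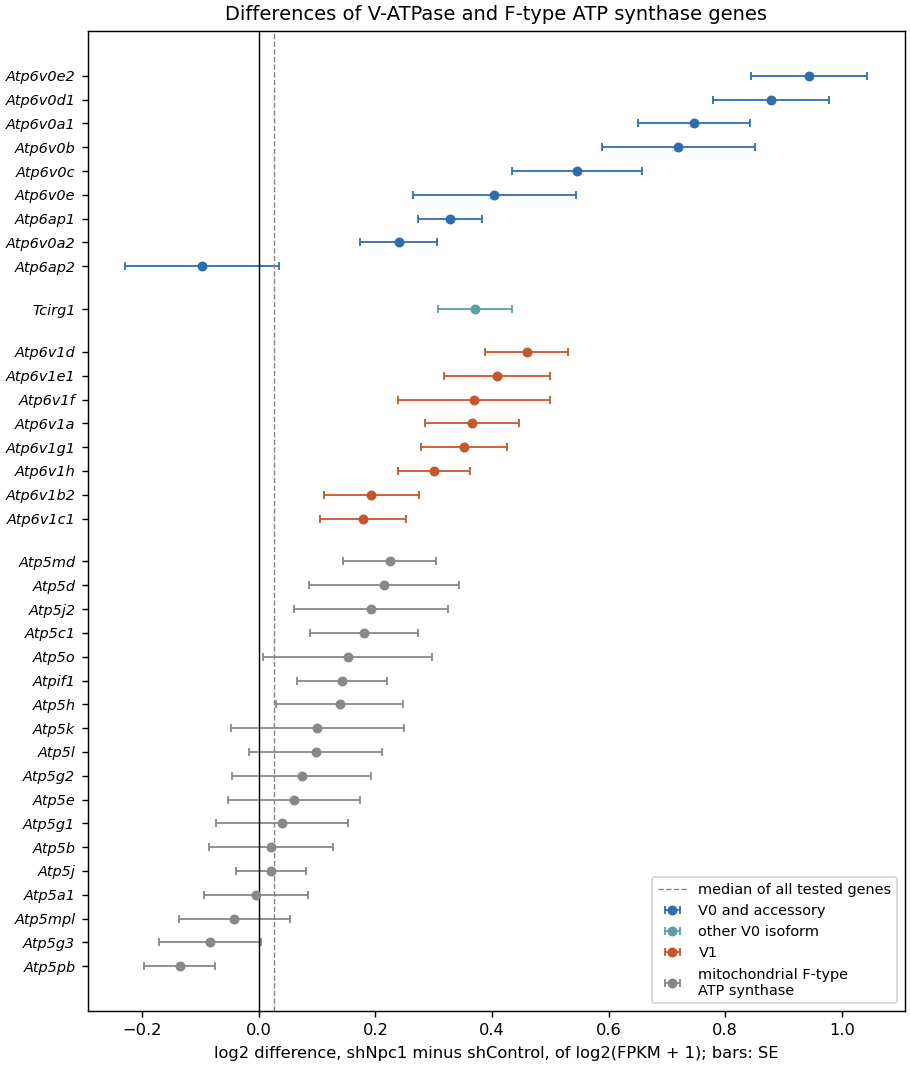
Log2 difference of log2(FPKM + 1), shNpc1 minus shControl, with its SE (n = 3 per group), for the 9 V0 and accessory genes, Tcirg1, the 8 tested V1 genes and the 18 genes of the mitochondrial F-type ATP synthase; the dashed line is the median of all tested genes, 0.03. V0 and accessory genes range from -0.10 to 0.94, V1 genes from 0.18 to 0.46 and F-type genes from -0.14 to 0.22. The values shown are not corrected for GC content. After that correction the ranges are 0.15 to 0.83, 0.13 to 0.64 and -0.17 to 0.42.

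The F-type ATP synthase works in the opposite sense, making ATP in mitochondria. All 18 listed genes were tested, and 0 were called in limma, beside 12.0% of all tested genes called higher and 5.89% lower. Of the 18 genes, 1 had an unadjusted limma p under 0.05. The authors' deposited values called 0 of the 18 at q under 0.05, beside 6.48% of all 15917 genes called higher, those under the filter included. The median log2 difference of the 18 genes was 0.09. Under other scalings a few passed: Atp5md with TPM (adjusted p = 0.0276), Atp5md and Atp5j2 after quantile normalisation, both higher, and Atp5pb after the GC correction, which was lower. Summed over the 18 genes, their level was 9683 to 10956 FPKM in the controls and 9872 to 12424 FPKM in the knockdown.

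Of 15 genes for factors that build or regulate the V-ATPase, 13 were tested, 3 rose, 0 fell and 10 did not pass, beside 12.0% of all tested genes called higher and 5.89% lower (median log2 difference 0.13). Tmem199, which in human cells acts in assembly of V0 in the endoplasmic reticulum, rose 1.28-fold (limma adjusted p = 0.0186). Rogdi, a partner of the rabconnectins that help V1 and V0 to join, rose 1.52-fold, with 4.51 ± 0.839 FPKM against 6.87 ± 0.580 (SD over 3 each, limma adjusted p = 0.0301). Its call was lost after the GC correction (log2 difference 0.35, limma adjusted p = 0.0633) and without the filter on low values (0.0574), in a range of 0.0227 to 0.125 over all alternatives. Meak7, for a protein with a TLDc domain, had a ratio of 1.33 and lay at the threshold (limma adjusted p = 0.0496; 0.0279 to 0.198 over all alternatives), with a log2 difference of 0.26, and 0.14 after the GC correction. None of the 13 passed without control replicate 1 or 3 or knockdown replicate 6. Vma21, an assembly factor of V0, had a log2 difference of -0.20 and Rnasek, which binds V0, one of 0.13, and neither passed. Without knockdown replicate 4 these were -0.11 and 0.02. After the GC correction they were 0.15 (SE 0.09) and -0.02, so the sign of each depended on the processing.

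Ragulator and its partners sense amino acids at the lysosome together with the pump. Of 16 genes of Ragulator, the Rag GTPases, folliculin and its partners and the MiT-TFE factors, 14 were tested, 3 rose and 0 fell, against the same 12.0% and 5.89% of all tested genes (median log2 difference 0.22). Lamtor1, which anchors Ragulator to the lysosomal membrane, rose 1.59-fold, Flcn, for folliculin, 1.48-fold and Rragc 1.38-fold (limma adjusted p = 0.0129, 0.00724 and 0.0151). Tfeb (4.40 ± 0.210 and 5.50 ± 0.920 FPKM) and Tfe3 (16.4 ± 0.756 and 20.2 ± 2.37 FPKM; SD, n = 3 per group) did not pass, with adjusted p of 0.161 and 0.0800, and Mitf was under the filter. Without knockdown replicate 5 both were called higher (limma adjusted p = 0.0393 for Tfeb and 0.0329 for Tfe3), and Tfe3 was also called with TPM scaling (0.0328). With control replicate 1 or 3 dropped 1 of them passed, with control replicate 2 or knockdown replicate 6 dropped 2, with knockdown replicate 4 or 5 dropped 6, and 5 after the GC correction.

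Channels and exchangers carry the ions that balance or use the proton gradient. Of 16 genes 12 were tested, 5 rose and 0 fell, where 12.0% of all tested genes were called higher and 5.89% lower (median log2 difference 0.17). After the GC correction 6 were called higher and 1 lower, the latter being the channel gene Tpcn2 (log2 difference -0.26, limma adjusted p = 0.0209). Mcoln1, the lysosomal cation channel TRPML1, had the largest change of the list, 1.70-fold (limma adjusted p = 0.00149). Clcn7, a lysosomal exchanger of chloride for protons, rose as well, with 9.30 ± 0.101 FPKM against 14.8 ± 0.826 (SD over 3 each, limma adjusted p = 0.00283). Clcn6 rose 1.55-fold, the cystine exporter gene Ctns 1.42-fold and the two-pore channel gene Tpcn1 1.38-fold. The log2 difference of Tpcn1 was 0.43, and 0.28 after the GC correction. Ostm1, the partner of Clcn7, had a log2 difference of 0.09 and did not pass. Without knockdown replicate 4 its log2 difference was 0.33 and it was called higher (limma adjusted p = 0.00539). After the GC correction the difference was 0.18. Of the 12 tested genes 3 passed without control replicate 1 or 2 or knockdown replicate 6 and 2 without control replicate 3.

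Genes with the profile most like that of the V0 set were sought among 6466 genes averaging 10 FPKM or more. The measure was Pearson r over the 6 libraries with the mean of the 9 standardised profiles. It is a description, since the libraries fall into 2 groups and any gene that differs between them scores high; 665 genes (10.3%) exceeded 0.95. The 5 highest were Cds2, a CDP-diacylglycerol synthase gene, Plekho1, Pld3, a lysosomal nuclease gene, Chac1, a glutathione-degrading enzyme gene, and Vegfb, an endothelial growth factor gene, with r from 0.9981 for Vegfb to 0.9995 for Cds2. Pld3 was at 11.48, 11.94 and 12.13 FPKM in the controls and at 23.99, 19.16 and 20.57 in the knockdown. Like most V0 genes, it was highest in replicate 4.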

How the data were processed

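Polyadenylated RNA of 6 libraries was sequenced from DNA nanoballs, per the labels' protocols. The authors deposited FPKM values (2 decimals, summing to 661950 to 757026 per library), and per gene a log2 ratio between groups. The deposited p-value and q-value belong to that ratio. Aligner, build, annotation, test and strand use were left unnamed, that is, not given in the sources used here. The depth is unknown. In GENCODE, Atp6v0c has 2 processed pseudogenes, and antisense genes overlap the spans of Atp6v0b and Atp6v0a2. Overlap of exons and likeness of sequence were not examined. Whether reads of these genes can be told apart was not tested.

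The scale was log2(FPKM + 1). Genes averaging 1 FPKM or more (10400) were fitted with limma 3.58.1 in R 4.3.3 (intensity trend, two-sided, Benjamini-Hochberg over all tested genes, threshold 0.05); the fit was tested on simulated data. GC content came from the longest coding transcript in GENCODE, found for 98.5% of tested genes; the correction subtracts a spline with 5 degrees of freedom from each library. The members and lists were chosen with earlier results of these data known. Named were the 9 genes, Npc1, list members that passed (up to 5 by p), all of a short list, and the 5 most similar profiles; other list members named as not passing, and single markers, were chosen after their values were seen. No sequence of the V0 proteins was used.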

Additional observations from a re-analysis of the deposited data

How the results depend on the processing

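Of 152 recomputed log2 differences of the 9 genes, 144 moved by less than 1 SD between replicates and 8 by more. Some settings changed only the filter or limma's variance estimate, which cannot move a gene's log2 difference. The 144 are therefore partly fixed by construction and overstate the stability. Differences of the 8 genes that were higher kept their direction in all alternatives, and that of Atp6ap2 ranged from -0.18 to 0.15. The median of the 9 genes stayed between 0.42 and 0.62 when a library was left out. Calls over all genes numbered 469 to 2953 then (309 to 1907 higher, 160 to 1082 lower); lower calls were 1210 after the GC correction. Leaving out a library gave 3 to 8 calls among the 9 genes, 0 to 6 for V1 (3 with TPM), 0 to 1 for other V0 isoforms, 0 to 4 for assembly and regulators, 1 to 6 for Ragulator, Rag and MiT-TFE genes (5 after the GC correction) and 2 to 6 for ion channels and exchangers. Of the F-type genes 1 was called under TPM scaling, 2 under quantile normalisation and 1 under the GC correction. The cause of these shifts was not tested; leaving out a library also leaves fewer samples. Npc1 was called lower in each alternative that kept it. No paired analysis was possible because the groups share no replicate number. With 3 libraries per group and unknown depth, genes under 1 FPKM were not tested.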
